A study of Mus musculus with 10 samples.

Results

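AKT isoforms and PI3K subunits were described at the RNA level by 8 genes, chosen by symbol: the AKT kinase genes Akt1 and Akt2, the class IA catalytic genes Pik3ca and Pik3cb, the class IA regulatory genes Pik3r1, Pik3r2 and Pik3r3, and Pdpk1, the gene of the kinase PDK1. All 8 were found among the 42465 gene models of the table, each as a single model, and all 8 passed the filter on low values among 15156 genes tested. The levels are of RNA, and no kinase activity or phosphorylation was measured. The libraries came from Ednrb-/- and WT neural tube explants, 5 biological replicates of each genotype, isolated from mouse embryos at embryonic day 9.5 and cultured for 4 days. Neural tube explants release neural crest cells, from which melanoblasts, the pigment cell precursors, arise. Both genotypes were grown in the same DMEM-based medium. It held 20 nM EDN3, the ligand of the receptor that Ednrb encodes, and 10% fetal bovine serum. The labels give neither the Ednrb allele, nor the strain, nor how many explants went into a library.

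PI3K is a lipid kinase that growth factor receptors and G protein-coupled receptors switch on. A class IA enzyme pairs a catalytic subunit with a regulatory subunit, whose SH2 domains dock on phosphorylated receptors, and it makes the membrane lipid PIP3. PIP3 recruits AKT and PDK1, PDK1 and the complex mTORC2 phosphorylate AKT, and active AKT promotes survival, growth and division through many substrates. In the melanocyte lineage the receptor KIT is a well known input to this pathway. The study's title places AKT in an axis with Ednrb and Aim2 that bears on melanoblast proliferation, and the comparison below sets Ednrb-/- explants against WT explants.

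Levels are given as FPKM, fragments scaled to gene length and to library size, as the authors deposited them. A gene is said to have risen or fallen where limma on log2(FPKM + 0.5) gave a Benjamini-Hochberg adjusted p under 0.05 over all 15156 genes. Every fold change is the mean of that log2 value in Ednrb-/- libraries less the mean in WT libraries, a scale that understates the change of low genes. Reads worked back from FPKM and gene length summed to between 13022266 and 19532570 per library. The library size that the FPKM imply was not this sum. It was 1.0005 to 1.023 times the sum in Ednrb-/- libraries and 0.953 to 1.032 times in WT libraries. Ednrb itself, the targeted gene, averaged 7.15 ± 3.41 FPKM in Ednrb-/- and 52.3 ± 7.16 FPKM in WT libraries (SD, n = 5 each), and all 5 Ednrb-/- libraries lay below every WT library. Gene lists of cell types also moved with genotype. All 11 neuron markers tested rose, and their summed level was 1803 to 2063 FPKM in Ednrb-/- against 1114 to 1438 FPKM in WT libraries. All 10 smooth muscle markers tested fell, with sums of 53.8 to 322.7 FPKM in Ednrb-/- against 371 to 2714 FPKM in WT libraries. Of 10 fibroblast-like mesenchyme markers tested 9 fell and 1 rose, with sums of 45.5 to 130.5 FPKM in Ednrb-/- and 124.6 to 689.8 FPKM in WT libraries, which overlapped. Of 7 melanocyte lineage markers 6 fell, with melanocyte sums of 11.1 to 20.7 FPKM in Ednrb-/- against 71.7 to 216 FPKM in WT libraries. Of 10 neural crest markers 6 fell, with sums of 109.5 to 149.1 FPKM in Ednrb-/- against 160.7 to 235.3 FPKM in WT libraries. Of 8 Schwann cell precursor and glia markers tested 7 fell and 1, Fabp7, rose, with sums of 405.8 to 531.9 FPKM in Ednrb-/- and 255.3 to 489.9 FPKM in WT libraries, which overlapped. All 3 epithelial markers tested fell, as did 2 of 4 cartilage and bone markers, 1 of 3 endothelial markers and the 1 skeletal muscle marker tested. Of 10 neural tube progenitor markers 1 fell and 9 did not pass. Of 9 endothelial markers 7 lay under 1 FPKM in every library, and of 8 blood and macrophage markers found 7 did, 2 of them at 0 throughout. In whole explants fewer cells of a type and less RNA per cell cannot be told apart, and the part of these shifts in cell type markers in the results below was not tested.

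Of the 8 genes, 1 fell, Akt1, and 1 rose, Pik3r3. Both had groups that did not overlap in any library. Over all genes tested 19.5% changed, 13.0% downward and 6.53% upward, and 13.2% had groups that did not overlap, so 2 of 8 is close to that background. The upward and downward calls over all genes numbered 990 and 1966, or 1603 and 1730 under quantile normalization. The median log2 fold change of the 8 genes was -0.05, against 0.0048 over all genes tested. The sizes were modest: the largest fold change among the 8, that of Pik3cb, was -0.48, and it did not pass.

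For the 2 genes that changed, the stretch of 250 bases just before an annotated transcription start is shown. Which starts were used in these explants was not tested. The sequences are from RefSeq, build GRCm38.p6, in the direction of the gene. The start with the most GENCODE M21 transcripts beginning within 100 bases was taken, among starts whose window held no exon of the gene. For Pik3r3, 3 transcripts begin within 100 bases of it. The bases just after that start are not found as a whole run in any GENCODE M21 transcript of Pik3r3. Capitals mark the GC box GGGCGG on either strand.
Akt1 (chr12:112674277-112674526, minus strand): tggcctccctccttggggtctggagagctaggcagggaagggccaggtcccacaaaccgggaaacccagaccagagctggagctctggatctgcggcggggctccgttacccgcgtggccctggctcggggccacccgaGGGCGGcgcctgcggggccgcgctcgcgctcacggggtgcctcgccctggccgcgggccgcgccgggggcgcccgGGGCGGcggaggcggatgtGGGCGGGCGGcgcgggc
Pik3r3 (chr4:116221358-116221607, plus strand): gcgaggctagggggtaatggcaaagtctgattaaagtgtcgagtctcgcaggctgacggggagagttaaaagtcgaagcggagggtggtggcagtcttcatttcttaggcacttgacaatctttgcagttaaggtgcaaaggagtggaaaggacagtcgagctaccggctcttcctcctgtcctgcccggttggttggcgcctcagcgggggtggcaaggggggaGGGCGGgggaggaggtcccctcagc
The Akt1 window is 78.4% G and C and holds the GC box 4 times, the last 2 copies overlapping, and the Pik3r3 window is 58.8% G and C and holds it once. Of 32841 such windows of all genes in the RefSeq table, 32.7% hold the GC box on either strand. Neither window holds the E-box CACGTG (6.02% of windows), the E-box variant CATGTG that MITF can bind (12.3%), the FOXO core GTAAACA (3.17%), CCAAT (33.9%) or TATAAA (12.4%), both strands searched. At the other start listed for Akt1, at 112674884, the window holds CATGTG once and GTAAACA once. Of the other starts listed for Pik3r3, the window at 116221416 holds CCAAT 2 times and the GC box once, and the window at 116222747 holds the GC box once. These are matches of letters in these windows and say nothing of which factors act there.

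Akt1 was the most abundant of the 8 genes in both genotypes and fell in Ednrb-/- explants. It encodes the most widely expressed AKT isoform, and its model lies on chromosome 12 from 118681146 to 118702122, minus strand, in the file's coordinates of the C57BL/6NJ assembly. Ednrb-/- replicates 1 to 5 held 83.9, 75.1, 78.4, 79.2 and 70.0 FPKM, against 85.8, 100.5, 94.5, 96.1 and 92.4 FPKM in WT replicates 1 to 5. Every Ednrb-/- library lay below every WT library, with Ednrb-/- replicate 1 and WT replicate 1 closest to each other. The means were 77.3 ± 5.14 FPKM in Ednrb-/- and 93.9 ± 5.38 FPKM in WT libraries (SD, n = 5 each). This is a log2 fold change of -0.28 with a 95% interval of -0.44 to -0.11, or 0.824 times the WT level (limma, adjusted p = 0.0236). The exact permutation test, two-sided, gave p = 0.00794, the lowest value open to 2 groups of 5. Each value rests on 3865 to 6556 reads. Leaving out 1 library put the adjusted p above the threshold for 4 of the 10 libraries, at 0.0538 for WT replicate 3, 0.0629 for WT replicate 4, 0.0545 for WT replicate 5 and 0.0623 for Ednrb-/- replicate 5. A miRNA model, Mir6939, lies within Akt1 on the same strand and reached at most 3.92 FPKM.

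Akt2, the isoform best known for insulin-stimulated glucose uptake, was less abundant than Akt1 in every library, and its groups overlapped. Its model lies on chromosome 7 from 27142308 to 27206464, plus strand. Ednrb-/- replicates 1 to 5 held 11.2, 10.5, 9.53, 10.4 and 10.6 FPKM, and WT replicates 1 to 5 held 9.68, 12.3, 11.1, 10.3 and 11.1 FPKM. Its log2 fold change was -0.05 with a 95% interval of -0.24 to 0.14 (limma, adjusted p = 0.713). The interval leaves room for a change of up to 1.10-fold upward or a fall to 0.844 times the WT level.

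Akt1 made up 86.8% to 89.2% of the summed FPKM of Akt1 and Akt2 in Ednrb-/- libraries and 89.1% to 90.3% in WT libraries. The ratio of Akt1 to Akt2, which does not depend on how libraries are scaled, was 7.49, 7.17, 8.23, 7.63 and 6.60 in Ednrb-/- replicates 1 to 5. In WT replicates 1 to 5 it was 8.87, 8.16, 8.55, 9.36 and 8.36. Its size depends on the gene lengths used for FPKM, 3948 bases for Akt1 and 7131 bases for Akt2. The same holds for the shares, the other ratios and the order of levels between genes. The groups overlapped in 1 pair only, since Ednrb-/- replicate 3 lay just above WT replicate 2. The neuron, smooth muscle, melanocyte and neural crest marker sums given above also separated the genotypes. Among Ednrb-/- libraries, replicate 5, the lowest for Akt1, also had the lowest smooth muscle, melanocyte and neural crest sums and the highest neuron sum. Among WT libraries, replicate 2, the highest for Akt1, had the lowest smooth muscle sum and the highest neuron sum. The part of these sums in the Akt1 difference was not tested.

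**Figure D1:**
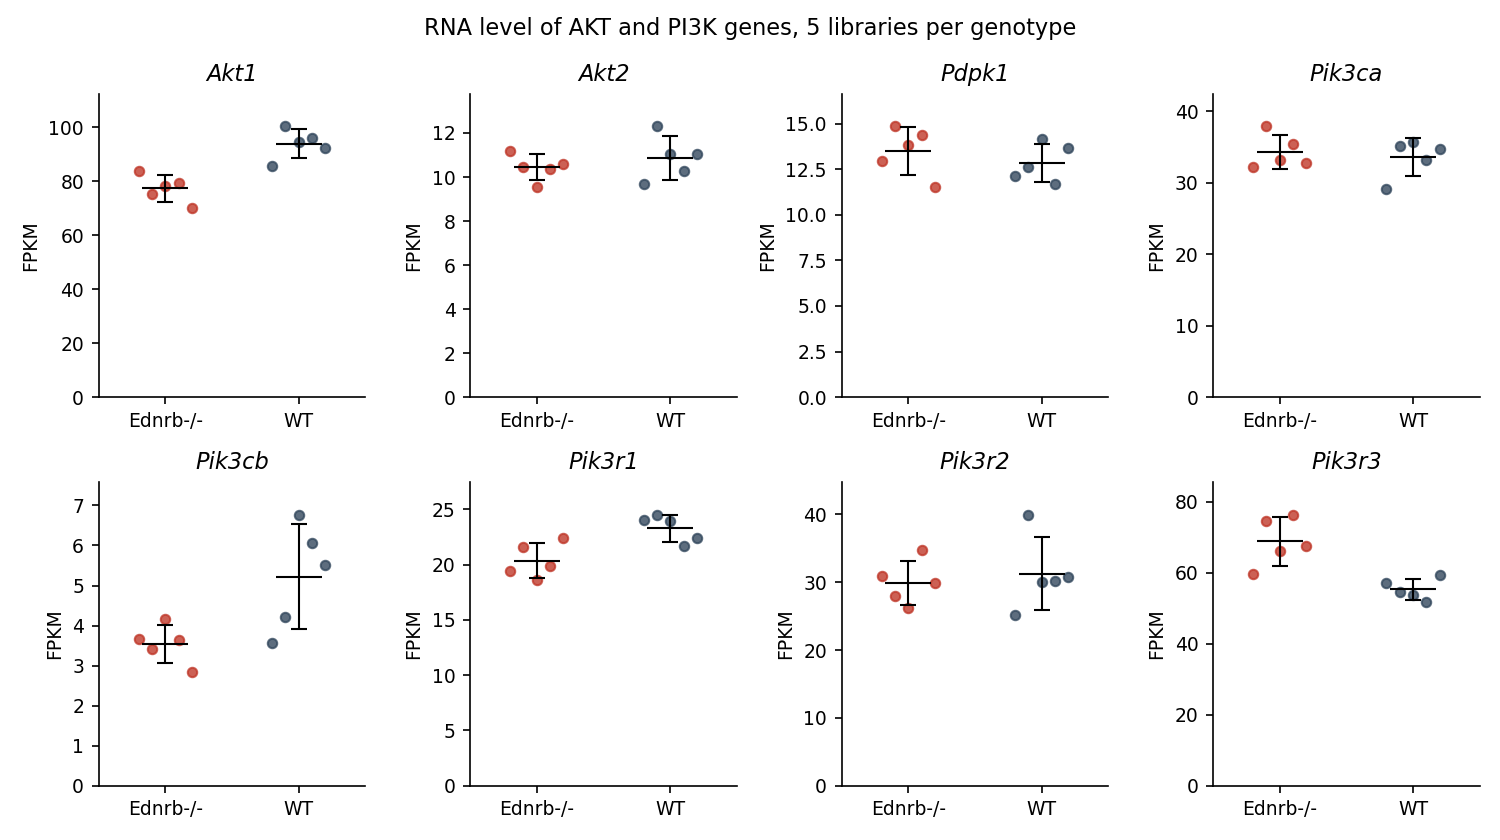
FPKM (vertical axes, from 0) of the 8 genes in each library, with Ednrb-/- libraries left and WT libraries right; points are replicates 1 to 5 from left to right, and bars give mean ± SD. Akt1 lies at 70.0 to 83.9 FPKM in Ednrb-/- and 85.8 to 100.5 FPKM in WT libraries, Pik3r3 separates the other way, and the other 6 panels overlap.

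Pdpk1 encodes PDK1, the kinase that phosphorylates the activation loop of AKT and of related kinases, and it did not pass. The model lies on chromosome 17 from 24065508 to 24147385, minus strand. Ednrb-/- replicates 1 to 5 held 12.9, 14.9, 13.8, 14.4 and 11.5 FPKM, and WT replicates 1 to 5 held 12.2, 12.6, 14.2, 11.7 and 13.7 FPKM. Both the lowest and the highest of the 10 values were in Ednrb-/- libraries. For Pdpk1 the log2 fold change was 0.07 with a 95% interval of -0.14 to 0.27 (limma, adjusted p = 0.660).

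Pik3ca, the gene of the catalytic subunit p110α that most receptor tyrosine kinases use, was the main class IA catalytic gene and did not pass. Its model lies on chromosome 3 from 31536160 to 31567533, plus strand. It held 32.3, 38.0, 33.2, 35.5 and 32.7 FPKM in Ednrb-/- replicates 1 to 5 and 29.1, 35.2, 35.8, 33.3 and 34.8 FPKM in WT replicates 1 to 5. The 2 groups covered much the same range, and WT replicate 1 was the lowest of all. Pik3ca had a log2 fold change of 0.03 with a 95% interval of -0.14 to 0.21, which spans levels from 0.905 to 1.15 times that of WT (limma, adjusted p = 0.823).

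Pik3cb encodes p110β, the class IA catalytic subunit that also answers to the G protein beta-gamma subunits released by G protein-coupled receptors. It was the least abundant of the 8 genes and the one with the largest difference. The model lies on chromosome 9 from 103261256 to 103383329, minus strand. Ednrb-/- replicates 1 to 5 held 3.65, 3.43, 4.16, 3.65 and 2.84 FPKM, against 3.57, 4.21, 6.77, 6.06 and 5.50 FPKM in WT replicates 1 to 5. WT replicates 3, 4 and 5 stood above all Ednrb-/- libraries, while WT replicate 1 lay within their range and WT replicate 2 just above it. Its log2 fold change was -0.48 with a 95% interval of -0.85 to -0.10, at 321 to 766 reads per library (limma, adjusted p = 0.0728; exact two-sided permutation p = 0.0476). The adjusted p was 0.0248 without WT replicate 1 and 0.0173 with libraries weighted by their quality, so the call changed with the setting. The spread of Pik3cb among WT libraries, a coefficient of variation of 25.2%, was the widest of the 8 genes in either genotype. WT replicates 3, 4 and 5 also had the 3 highest smooth muscle sums, 2714, 2285 and 1662 FPKM. WT replicates 1 and 2 had 1476 and 371 FPKM. The mesenchyme, epithelial, endothelial and skeletal muscle marker sums split the WT libraries in the same way. The neuron sums and the Schwann cell precursor and glia sums split them the other way, and the remaining marker sums did not split them so. The part of any of these in the Pik3cb difference was not tested.

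Pik3cd, the catalytic gene best known from white blood cells and not among the 8, averaged 4.33 ± 0.66 FPKM in Ednrb-/- and 3.46 ± 0.56 FPKM in WT libraries (SD, n = 5 each; limma, log2 fold change 0.29, adjusted p = 0.172). Of the summed FPKM of Pik3ca, Pik3cb and Pik3cd, Pik3ca made up 79.5% to 82.4% in Ednrb-/- and 77.7% to 81.5% in WT libraries. Pik3cb made up 7.14% to 9.95% in Ednrb-/- and 9.69% to 14.7% in WT libraries, with overlap between the groups. The catalytic sum was 42.2 ± 2.97 FPKM in Ednrb-/- and 42.3 ± 3.92 FPKM in WT libraries (SD, n = 5 each).

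Pik3r3 rose in Ednrb-/- explants. It encodes p55γ, a short regulatory subunit that has the SH2 domains but lacks the SH3 and BH domains of the p85 subunits, and it is known for its expression in brain. The model lies on chromosome 4 from 121634327 to 121719811, plus strand, in the file's coordinates. Ednrb-/- replicates 1 to 5 held 59.5, 74.5, 66.0, 76.3 and 67.4 FPKM, against 57.2, 54.5, 53.6, 51.7 and 59.4 FPKM in WT replicates 1 to 5. All Ednrb-/- libraries lay above all WT libraries, though by a narrow margin, since Ednrb-/- replicate 1 and WT replicate 5 nearly coincided. The means were 68.8 ± 6.81 FPKM in Ednrb-/- and 55.3 ± 3.02 FPKM in WT libraries (SD, n = 5 each). The log2 fold change was 0.31 with a 95% interval of 0.13 to 0.49, or 1.24-fold (limma, adjusted p = 0.0243), on 4246 to 6585 reads per library. The exact permutation p, two-sided, was again 0.00794. It lost the call when WT replicate 3, WT replicate 4 or Ednrb-/- replicate 2 was left out (limma, adjusted p = 0.0593, 0.0679 and 0.0531), under quantile normalization (0.0597) and after rescaling to TPM (0.0620). The neuron marker sums lay higher in all Ednrb-/- libraries, as given above, and their part in this rise was not tested.

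Pik3r1 encodes p85α and, from internal starts, shorter forms that gene level counts do not separate. The model lies on chromosome 13 from 106759088 to 106850617, minus strand. Ednrb-/- replicates 1 to 5 held 19.4, 21.6, 18.6, 19.9 and 22.4 FPKM, and WT replicates 1 to 5 held 24.03, 24.5, 23.9, 21.7 and 22.4 FPKM. All 5 Ednrb-/- libraries lay below the WT median, but Ednrb-/- replicate 5 lay above WT replicate 4. Pik3r1 had a log2 fold change of -0.19 with a 95% interval of -0.36 to -0.02 and did not pass over all genes (limma, adjusted p = 0.104; exact two-sided permutation p = 0.0159 for this gene alone).

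Pik3r2, the gene of p85β, did not pass. Its model lies on chromosome 8 from 73748529 to 73757063, minus strand. It held 31.0, 27.9, 26.2, 34.8 and 29.9 FPKM in Ednrb-/- replicates 1 to 5 and 25.2, 40.0, 30.1, 30.2 and 30.7 FPKM in WT replicates 1 to 5. The lowest and the highest value were both in WT libraries, replicates 1 and 2, and the other 3 WT libraries were close together. Its log2 fold change was -0.05 with a 95% interval of -0.31 to 0.21 (limma, adjusted p = 0.806).

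Within the class IA regulatory genes the shares of Pik3r1 and Pik3r3 separated the genotypes. Pik3r3 made up 54.1% to 60.1% of the summed FPKM of the 3 genes in Ednrb-/- libraries, against 45.8% to 53.7% in WT libraries. Pik3r1 made up 15.2% to 18.7% in Ednrb-/- against 19.9% to 22.6% in WT libraries. Pik3r2 made up 22.5% to 28.2% in Ednrb-/- and 23.7% to 33.6% in WT libraries, which overlapped. The ratio of Pik3r3 to Pik3r1, free of library scaling, was 3.06, 3.46, 3.55, 3.84 and 3.01 in Ednrb-/- replicates 1 to 5, against 2.38, 2.22, 2.24, 2.39 and 2.65 in WT replicates 1 to 5. All Ednrb-/- ratios lay above all WT ratios. The regulatory sum came to 2.82 ± 0.19 times the catalytic sum in Ednrb-/- and 2.61 ± 0.25 times in WT libraries (SD, n = 5 each), with overlapping ranges. RNA ratios do not give the ratios of the proteins.

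**Figure D2:**
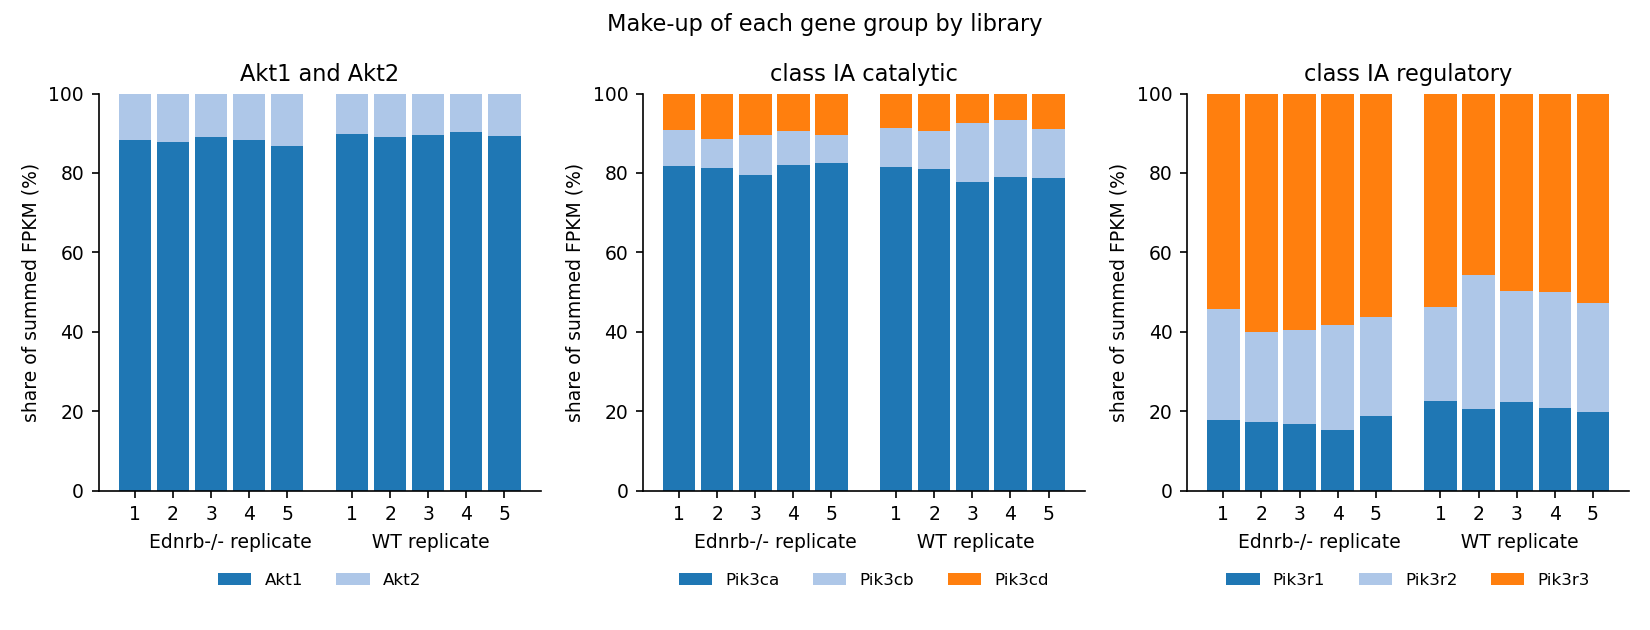
Share of summed FPKM (percent, vertical axes) held by each gene among Akt1 and Akt2, the class IA catalytic genes and the class IA regulatory genes, 1 stacked bar per library, Ednrb-/- replicates 1 to 5 left and WT replicates 1 to 5 right. The Pik3r3 segment is 54.1% to 60.1% in Ednrb-/- and 45.8% to 53.7% in WT libraries, and the Pik3r1 segment is 15.2% to 18.7% in Ednrb-/- and 19.9% to 22.6% in WT libraries.

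The order of the 8 genes by mean level was the same in Ednrb-/- and WT explants, from Akt1 through Pik3r3, Pik3ca, Pik3r2, Pik3r1, Pdpk1 and Akt2 to Pik3cb. In Ednrb-/- libraries the ranges of Akt1 and Pik3r3 overlapped, 70.0 to 83.9 and 59.5 to 76.3 FPKM. In WT libraries they did not, 85.8 to 100.5 and 51.7 to 59.4 FPKM. The ranges of Pik3ca and Pik3r2 overlapped in both genotypes, and those of Pdpk1 and Akt2 overlapped in WT libraries but not in Ednrb-/- libraries. By mean level over the 10 libraries Akt1 stood at the 96.7th percentile of the genes tested and Pik3cb at the 39.9th. The genes other than Pik3cb and Pik3r2 varied little among replicates, with a pooled SD within genotypes of 0.09 to 0.13 log2 units, which puts them between the 1.81th and 9.30th percentile of spread of all genes tested. Among WT libraries replicate 1 was the lowest for 5 of the 8 genes and replicate 2 the highest for 4.

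**Figure D3:**
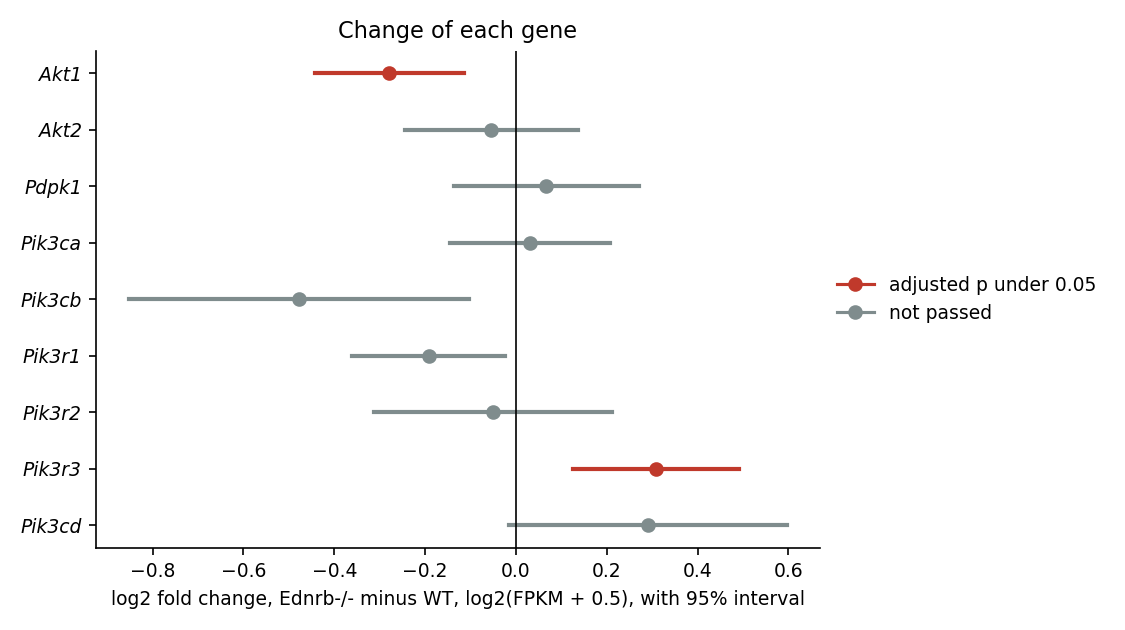
Log2 fold change of Ednrb-/- over WT, from log2(FPKM + 0.5) values (horizontal axis), with its 95% interval from limma for the 8 genes and for Pik3cd. Points in red passed an adjusted p of 0.05 over all genes: Akt1 at -0.28 and Pik3r3 at 0.31.

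The genes with the profile most like each of the 8 were taken by the lowest root mean square difference, in log2 units, between centred log2(FPKM + 0.5) values over the 10 libraries. For Akt1 these were Psmd3, a proteasome subunit gene, Clptm1 and Slc25a39, at 0.048, 0.061 and 0.061, where the median gene stood at 0.304. For Pik3r3 they were Adgrb3, an adhesion receptor gene of neurons, Prepl, and Klc1, a kinesin light chain gene, at 0.054, 0.054 and 0.065, against a median of 0.304. For Pik3cb they were Arf6, Pip5k1a, whose product makes the lipid that PI3K phosphorylates, and Hyou1, at 0.127, 0.128 and 0.135, against a median of 0.431. For Pik3r1 the nearest were Exosc10, Cdkal1 and Fzd1, at 0.078, 0.081 and 0.081. Akt2 lay nearest to Brd1, Usp4 and Smad2, at 0.048, 0.050 and 0.054, and Pik3ca to Bace1 and Mfn1, at 0.035 and 0.036. Pik3r2 lay nearest to Arhgap35, Zfp521 and Arhgef10l, at 0.046, 0.048 and 0.058, and Pdpk1 to Cep295, Zer1 and Stag2, at 0.054, 0.055 and 0.059. These distances include the difference between genotypes.

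The genes around these 8 in the pathway were taken from 8 lists by role, with 105 further genes, of which 91 were tested. Of those, 5 rose and 28 fell, 36.3% in all, where 19.5% of all genes tested changed, and their median log2 fold change was -0.11. The count of 33 changed genes dropped to 22 on leaving out either WT replicate 3 or WT replicate 5. The lists were written with earlier results of these data known, so these shares describe the lists and test nothing. Each of the 8 lists held at least 1 gene that fell, and their counts follow. The part of the cell type marker lists given above in these counts was not tested.

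Upstream, 7 of 16 tested receptor genes that recruit PI3K fell and none rose, with a median log2 fold change of -0.43. Erbb3, the neuregulin receptor with many PI3K docking sites, averaged 2.08 ± 1.19 FPKM in Ednrb-/- and 11.02 ± 4.24 FPKM in WT libraries (SD, n = 5 each), with a log2 fold change of -2.22. Erbb2, its partner, had a log2 fold change of -0.99, and Axl, a receptor of the TAM family, one of -2.42 (limma, adjusted p = 0.00310, 0.00485 and 0.00747 for Erbb3, Erbb2 and Axl). Erbb3 is also a member of the neural crest and glia marker lists, whose counts are given above, and their part in the receptor falls was not tested. The other 4 that fell were Fgfr1, Egfr, Igf1r and Pdgfrb, the last also a member of the mesenchyme marker list. Kit, the receptor best known for driving PI3K in melanoblasts, was named after its values were seen. It did not pass, at 5.67 ± 1.37 FPKM in Ednrb-/- and 7.53 ± 1.85 FPKM in WT libraries (SD, n = 5 each; limma, adjusted p = 0.218). Of 11 adaptor genes tested 2 fell and none rose, with a median of 0.06. Irs1, which couples insulin and IGF receptors to PI3K, averaged 4.87 ± 0.48 FPKM in Ednrb-/- and 7.87 ± 1.93 FPKM in WT libraries (SD, n = 5 each; limma, log2 fold change -0.61, adjusted p = 0.0241), and 5 of 22 alternatives gave an adjusted p between 0.0533 and 0.0659, among them the fits that left out WT replicate 3, WT replicate 5 or Ednrb-/- replicate 5. Gab1, at a log2 fold change of -0.58, passed narrowly (limma, adjusted p = 0.0494), and 13 of 22 alternatives gave values between 0.0517 and 0.119, among them fits that left out WT replicate 2, 3, 4 or 5 or Ednrb-/- replicate 1, 3 or 5.

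Of 6 other PI3K genes tested 1 fell and none rose, with a median of 0.17. The one that fell, Pik3c2a, a class II PI3K gene, averaged 4.33 ± 1.63 FPKM in Ednrb-/- and 9.15 ± 3.09 FPKM in WT libraries (SD, n = 5 each; limma, log2 fold change -0.99, adjusted p = 0.0226), and 5 of 22 alternatives gave values between 0.0523 and 0.0591, each a fit that left out WT replicate 3, 4 or 5 or Ednrb-/- replicate 3 or 5. Pik3cg, Pik3r6 and Pik3c2g stayed under 1 FPKM in every library and below the filter.

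Among phosphoinositide phosphatase genes 1 rose and 2 fell of 8 tested, with a median of -0.07. Inppl1, the gene of SHIP2, which removes the 5-phosphate of PIP3, averaged 11.5 ± 2.62 FPKM in Ednrb-/- and 21.9 ± 3.61 FPKM in WT libraries (SD, n = 5 each; limma, log2 fold change -0.91, adjusted p = 0.00416). Synj2 had a log2 fold change of -1.22 and the myotubularin-related gene Mtmr6 one of 0.39 (limma, adjusted p = 0.0156 and 0.00946). Mtmr6 lost the call in 1 of 22 alternatives (limma, adjusted p = 0.0517). Among inhibitors of the pathway and AKT phosphatases 1 rose and 1 fell of 10 tested, with a median of -0.07. Phlda3, whose product competes with AKT for membrane lipids, averaged 16.2 ± 11.1 FPKM in Ednrb-/- and 50.0 ± 17.7 FPKM in WT libraries (SD, n = 5 each; limma, log2 fold change -1.75, adjusted p = 0.0126). The phosphatase subunit gene Ppp2r5b had a log2 fold change of 0.23 (limma, adjusted p = 0.0344), and 10 of 22 alternatives gave values between 0.0550 and 0.120, among them fits that left out WT replicate 3, 4 or 5 or Ednrb-/- replicate 1, 3 or 5.

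In the mTORC2 list 3 of 7 genes fell and none rose, with a median of -0.26. The 3 were the accessory subunits Prr5 and Prr5l and the inhibitor Deptor. Their levels were 1.56 ± 0.46, 1.02 ± 0.34 and 0.366 ± 0.272 FPKM in Ednrb-/- and 3.71 ± 0.56, 2.76 ± 0.81 and 1.91 ± 0.57 FPKM in WT libraries for Prr5, Prr5l and Deptor in that order (SD, n = 5 each), with log2 fold changes of -1.05, -1.10 and -1.50 (limma, adjusted p = 0.00406, 0.00785 and 0.00427). For all 3 genes every Ednrb-/- library lay below every WT library. Deptor was near the filter of 0.5 FPKM in Ednrb-/- libraries, at 0.017 to 0.678 FPKM. It rested on 2 to 328 reads per library, and all WT libraries lay above the filter. Mtor, Rictor, Mapkap1 and Mlst8, which form the core of the complex, did not pass.

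Downstream, 7 of 17 tested genes in the list of AKT substrates and their partners fell and 1 rose, with a median of -0.29. AKT keeps the FOXO transcription factors out of the nucleus. Foxo1 averaged 0.777 ± 0.368 FPKM in Ednrb-/- and 3.91 ± 1.48 FPKM in WT libraries (SD, n = 5 each; limma, log2 fold change -1.76, adjusted p = 0.00313), and Foxo4 and the Rab regulator gene Tbc1d1 had log2 fold changes of -0.74 and -0.998 (limma, adjusted p = 0.00670 and 0.00359). The others that fell were Cdkn1a, Wnk1, Akt1s1 and Mdm2, and the cell cycle inhibitor gene Cdkn1b was the one that rose. In the list of other kinases from families with members that PDK1 activates, 5 of 16 tested genes fell and 2 rose, with a median of -0.18. Dependence on PDK1 was not tested for any of them. Prkcd and Pkn2 had log2 fold changes of -0.90 and -0.47, and Rps6ka6, an RSK family gene, one of 0.55 (limma, adjusted p = 0.00384, 0.00868 and 0.00445). Pkn2 lost the call in 1 of 22 alternatives (limma, adjusted p = 0.0550). Sgk1, Prkci and Rps6ka3 also fell, and Prkcb also rose.

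**Figure D4:**
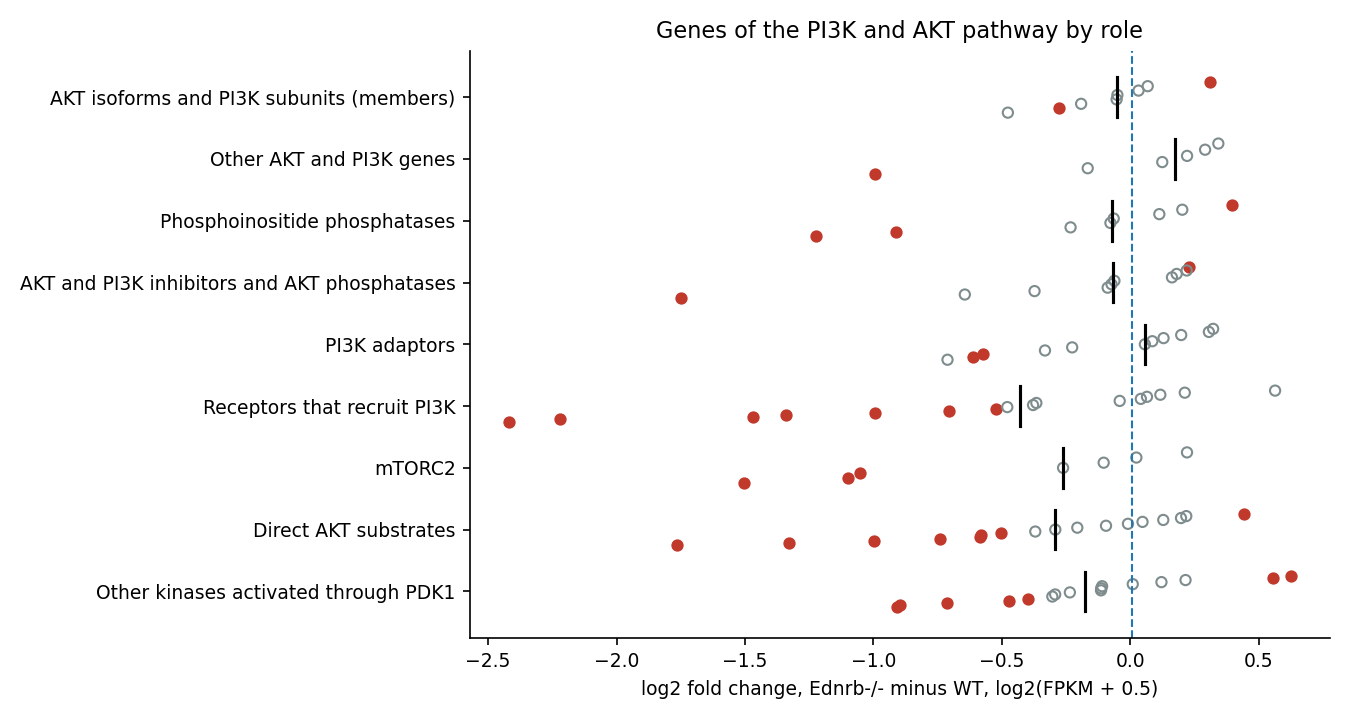
Log2 fold change of Ednrb-/- over WT, from log2(FPKM + 0.5) values (horizontal axis), of each tested gene in the lists by role; filled red points passed an adjusted p of 0.05 over all genes, open points did not, black bars are list medians and the dashed line is the median of all genes tested, 0.0048. Receptors reach -2.42, while the 8 genes stay between -0.48 and 0.31.

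Aim2, the DNA sensor gene that the title joins to AKT, averaged 2.16 ± 0.36 FPKM in Ednrb-/- and 1.27 ± 0.25 FPKM in WT libraries (SD, n = 5 each), with a log2 fold change of 0.59 (limma, adjusted p = 0.0244). The call was lost in 5 of 22 alternatives, at an adjusted p of 0.0612 to 0.0678 by limma. It was 0.0678 with no filter on low genes, and 0.0666, 0.0663 and 0.0612 when WT replicate 4, WT replicate 5 or Ednrb-/- replicate 5 was left out (limma).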

How the data were processed

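RNA sequencing of 10 libraries, 5 Ednrb-/- and 5 WT, was available as 1 table of FPKM per gene, deposited by the authors, with the gene length column used for it. Tools named in the submitters' processing notes are featureCounts 1.5.0-p3, HISAT2 2.0.5 and fastp. The notes also name the build mm10, while the identifiers in the file are of the C57BL/6NJ assembly. The sources used here give neither settings nor the use of strand. Columns were matched to samples by genotype and replicate number in the titles, with 0 columns left over. Lengths and other values per gene are per the file headers.

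The test was limma 3.58.1 in R 4.3.3 on log2(FPKM + 0.5), with the trended prior variance (limma-trend), all 10 libraries and no covariate. A gene was tested if 5 or more libraries had 0.5 FPKM or more. P values are two-sided, adjusted by Benjamini-Hochberg over 15156 genes. For the 8 genes the mean log2 difference was also tested by exact permutation over all 252 assignments of 5 against 5 libraries. The fit was also run on simulated data, and the outcome of that run is not reported here. Dividing FPKM times length by its smallest step gave whole reads for 100% of values, to within 0.01 of a read, and these sums are the depths given. No 2 libraries of a genotype were repeats of each other: the chi-square per gene, averaged over genes, was 14.8 to 93.4 within pairs. Alternatives changed the pseudocount, filter, scaling, prior, weights and gene set, used limma voom on the recovered reads, added a replicate block, or left out 1 library in turn.

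The 8 genes and the lists were chosen with earlier results of these data known. Genes named from the lists are up to 3 per list with the lowest p among those that passed, plus Ednrb, Aim2 and Pik3cd, and the 3 tested genes nearest in profile to each of the 8, less 1 whose symbol the table gives as a date. The remaining list genes were named with their values in view. Some genes that the rule and the lists take are not reported here.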

Additional observations from a re-analysis of the deposited data

Results flagged for a closer look

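Among 90 groups of 5 values checked, 1 had a library that stood apart, where chance alone gives about 1 in 20. Ppp2r5b, a regulatory subunit gene of the phosphatase PP2A, held 45.9 FPKM in Ednrb-/- replicate 3, while the nearest Ednrb-/- library held 41.7 FPKM. None of the values of the 8 genes stood apart in this way.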

How the results depend on the processing

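The same-numbered libraries of the genotypes were not taken as pairs, since 1 of 5 pairs deviated together with a correlation over 0.1. With a replicate block 1877 genes changed, 419 of them upward, and the log2 fold changes of Akt1 and Pik3r3, unchanged at -0.28 and 0.31, had adjusted p = 0.105 and 0.0968, and Aim2 had 0.0666. The upward count was 659 with no filter, 1603 under quantile normalization and 1684 with array weights. Pik3r3 was 0.28 under quantile normalization and 0.29 after TPM rescaling, neither past the threshold, and Pik3cb passed with array weights at -0.59. A value near 0 changed sign: Akt2 was 0.018 under quantile normalization. Leaving out each library in turn gave 1898 to 3240 changed genes, with 1898, 1912 and 1902 without WT replicates 3, 4 and 5, and 511 to 1151 upward calls. It gave 22 to 35 changed pathway genes beside the 8. The log2 fold change then ran from -0.31 to -0.24 for Akt1, 0.27 to 0.36 for Pik3r3, -0.59 to -0.38 for Pik3cb, -0.018 to 0.054 for Pik3ca and -0.12 to 0.041 for Pik3r2. With Pik3cd left out of the catalytic sum, Pik3ca made up 90.6% in Ednrb-/- and 86.7% in WT libraries. The cause of these shifts was not tested. The direction of Akt1, Pik3r3, Pik3cb, Pik3r1 and Pdpk1 was the same in all 22 alternatives.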
